A study of Homo sapiens with 14 samples.

Results

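The comparison described here is that of A549 cells in which U2AF1 had been knocked down with cells given a control siRNA. A549 is a human lung carcinoma line that grows attached. The members are the 4 libraries, of 14 in the series, whose titles name these conditions: 2 of a U2AF1 knockdown followed by overexpression of an empty vector, and 2 negative controls with the same empty vector and a control siRNA. Both groups thus carry the vector and a siRNA and differ in the siRNA's target. The other groups, also of 2 libraries each, are untreated cells and knockdown cells infected with virus for wild-type or S34F U2AF1 in the forms v1 and v3. Untreated and wild-type libraries are given beside the results below, and S34F libraries entered the filters, the shared estimate of spread and the summaries over all 14 libraries. The labels do not say whether replicates were separate cultures, so what the p-values measure is spread among these libraries, possibly technical. The labels name neither the siRNA sequences nor the time after transfection.

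U2AF1 and U2AF2 form the heterodimer that marks the 3′ end of an intron for the spliceosome. U2AF2 holds the run of pyrimidines upstream of the 3′ splice site, U2AF1 reads the AG at the intron's end, and SF1 holds the branch point before the U2 snRNP takes its place. Introns with a weak pyrimidine run are known to lean on U2AF1, and an exon whose 3′ splice site is not recognised may be skipped, while an intron may be kept or a neighbouring site used instead.

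In the 4 libraries 13734 to 14000 genes reached 1 FPKM, a unit of fragments divided by transcript length and by the mapped fragments of the library. Relative depth, read from the coverage column, was 1.07 and 0.970 in the controls and 0.927 and 1.20 in the knockdown, with the number of reads unknown. Replicates were correlated across genes at 0.977 in the control and 0.982 in the knockdown, on the log2(FPKM + 1) scale. The keratins KRT8 and KRT18, which mark epithelial cells, stood at 1129 to 1573 FPKM in the 4 libraries, and EPCAM, an epithelial adhesion molecule, was low at 3.69 to 5.53 FPKM. Of 10 fibroblast markers 4 were at or below 0.1 FPKM in either group, DCN was listed at 0 in all 4 libraries, and the list's sum was 10.4 to 16.4 FPKM in the control and 8.53 to 10.7 in the knockdown. Of 11 leukocyte and endothelial markers 8 were at or below 0.1 FPKM in either group, and their sum was 17.6 to 32.5 against 24.5 to 26.7 FPKM, most of it CD68. Replicate 2 of the control siRNA stood apart in the 15 mitochondrially encoded genes, taken as a sign of RNA quality, which summed to 20080 FPKM there against 40126 in the other control library and 44392 and 40304 in the knockdown. In replicate 1 of the knockdown the 89-base MIR1260B took 8.81% of the FPKM sum and was listed at 0 in the other 3 libraries. In bulk RNA, fewer cells of a type and less RNA per cell cannot be told apart.

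U2AF1 (ENSG00000160201, chromosome 21, 44513066 to 44527697, GRCh37) stood at 117 and 119 FPKM in the controls and at 16.2 and 28.9 FPKM in the knockdown. The libraries labelled knockdown were the low ones, without overlap, and untreated cells had 128 and 143 FPKM. The log2 change was -2.39 (SE 0.31, limma adjusted p = 0.00808). The adjusted p was 0.0557 without replicate 2 of the control and 0.0522 without replicate 1 of the knockdown. Its partner U2AF2 was at 172 and 227 FPKM in the controls and 273 and 340 FPKM in the knockdown, again without overlap (log2 0.62, SE 0.14, adjusted p = 0.0429).

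Of 14233 genes tested, limma called 405, or 2.85%, at an adjusted p under 0.05. There were 112 called higher (0.787%) and 293 called lower (2.06%), and 2689 genes had an unadjusted p under 0.05. The rises were mostly moderate, with 16 genes at least 2 times higher and a median log2 change of 0.68 among those called, while 107 genes were at least 2 times lower and the median of those called lower was -0.85. The median over all genes tested was -0.01. A replicate block, which pairs libraries of the same number, kept all 405 calls and gave 668 higher (4.69%) and 1013 lower (7.12%). With 2 libraries a group the calls lean on each of them. Leaving out 1 gave 19 calls without replicate 2 of the control, 43 without replicate 1 of the knockdown and 15 without its replicate 2. Of the 103 called genes other than U2AF1 that the naming rule singles out, 8 stayed called whichever of the 4 libraries was left out, and RBM39, ITGA3, ECE1, ALDH3B1, FSTL1 and LTBP4 are among them.

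**Figure D1:**
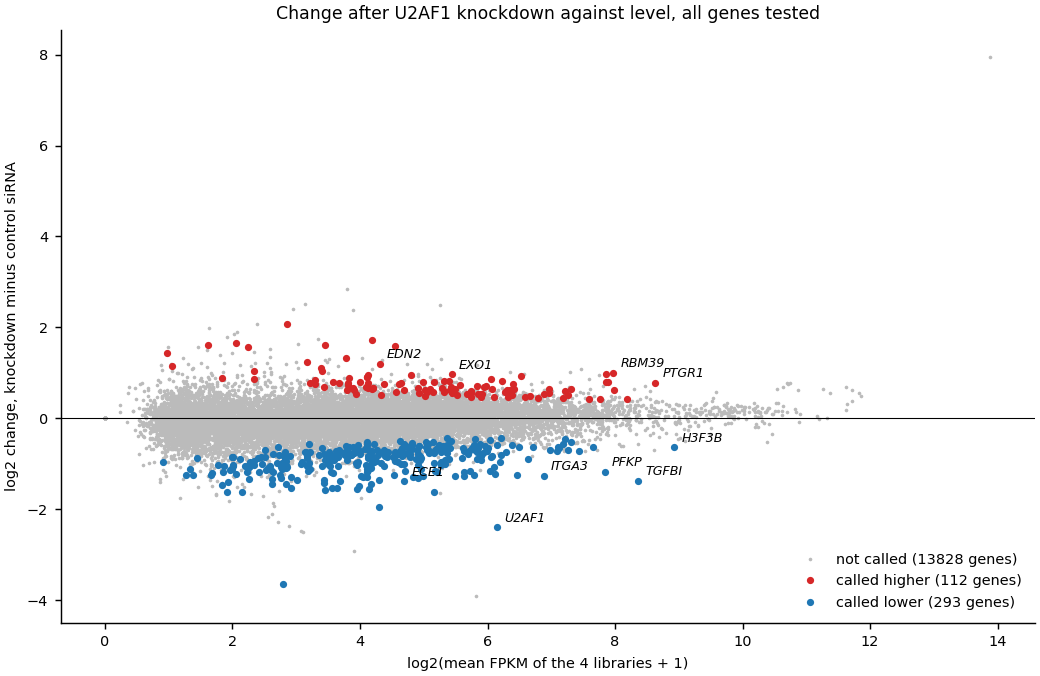
Log2 change of each gene (knockdown minus control siRNA, vertical axis) against its level (log2 of the mean FPKM of the 4 libraries plus 1, horizontal axis); red points are the 112 genes called higher, blue points the 293 called lower and grey points the genes not called. The called falls reach farther from 0 than the called rises at most levels, and the grey point far at the upper right is MIR1260B, present in 1 of the 4 libraries.

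The splicing machinery itself changed in a few of its parts. RBM39, an RNA-binding protein related to U2AF2, had 165 and 166 FPKM in the controls and 337 and 331 FPKM in the knockdown (chromosome 20, 34291531 to 34330234, GRCh37). Both knockdown libraries lay 2.02 times above the control on average, with replicates of each group close together (log2 1.01, SE 0.10, adjusted p = 0.0017), while wild-type libraries had 168 to 221 FPKM. SF1, the branch point binding protein, had 158 and 178 FPKM in the controls and 257 and 332 FPKM in the knockdown (log2 0.80, adjusted p = 0.0184). Its wild-type libraries were back at 187 to 222 FPKM. Of 23 members of splice site recognition, RBM39, SF1 and U2AF2 rose and U2AF1 and DDX46 fell, where limma called 2.85% of all genes, and the list's median was 0.05. DDX46, a helicase that acts on the U2 snRNP, went from 69.8 and 84.3 to 47.8 and 45.0 FPKM (log2 -0.71, adjusted p = 0.0164). SF3B3, a U2 snRNP subunit, stood at 122 and 166 against 82.1 and 101 FPKM and was not called (adjusted p = 0.0964), but was called with a replicate block (adjusted p = 0.00515).

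Among 25 members of the U1 and tri-snRNP list, EFTUD2, the GTPase of the U5 snRNP, fell from 160 and 186 to 124 and 108 FPKM (adjusted p = 0.0362), and the median was -0.02. Of 27 hnRNP and PTB family members, HNRNPDL fell from 217 and 211 to 136 and 122 FPKM (log2 -0.72, adjusted p = 0.0187) and PTBP2 rose, with a median of 0.13. PTBP1, the splicing repressor, was at 203 and 244 against 291 and 333 FPKM (adjusted p = 0.0637, and 0.0215 under a replicate block), and HNRNPL at 254 and 278 against 362 and 527 FPKM (adjusted p = 0.106, and 0.00265 under the block). Neither gene's groups overlapped. Of 21 other splicing regulators EWSR1 and RBM10 fell. RBM10, which promotes exon skipping at many sites, went from 28.1 and 34.5 to 17.3 and 16.7 FPKM (log2 -0.83, adjusted p = 0.0235). Wild-type libraries had 18.3 to 21.7 FPKM of it, closer to the knockdown than to the control. EWSR1, an RNA-binding protein that also regulates splicing, went from 161 and 180 to 105 and 110 FPKM (adjusted p = 0.043).

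SR proteins bind exons and recruit U2AF and U1 to the neighbouring splice sites. All 14 SR proteins and TRA2 genes measured lay above the control on the mean, with a median of 0.28. In 11 of them both libraries lay beyond both controls, as did 24.7% of all genes and 34.4% of those over 50 FPKM in the control. limma called 0 of the 14 and 6 with a replicate block, all higher, where the block called 4.69% of all genes higher. SRSF1 stood at 248 and 244 against 293 and 310 FPKM (adjusted p = 0.112, and 0.0447 under the block), SRSF7 at 182 and 149 against 213 and 219 FPKM (adjusted p = 0.0898, and 0.0397 under the block). SRRM1, a coactivator listed among the splicing regulators, stood at 44.9 and 48.4 against 62.3 and 73.0 FPKM (adjusted p = 0.072, and 0.00999 under the block). In each of these the 2 knockdown libraries exceeded both controls.

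Small nucleolar RNA hosts are spliced transcripts that carry snoRNAs in their introns and whose mature RNA is a known substrate of nonsense-mediated decay. Of 12 hosts measured 10 lay above the control, with a median of 0.46. SNHG1 was called, where limma called 2.85% of all genes. It had 183 and 130 FPKM in the controls and 276 and 335 FPKM in the knockdown (log2 0.97, SE 0.19, adjusted p = 0.0279), and 216 to 256 FPKM in wild-type libraries. SNHG15 had 33.4 and 32.2 against 54.1 and 68.2 FPKM (adjusted p = 0.0637), SNHG16 had 85.9 and 73.5 against 113 and 118 FPKM (adjusted p = 0.0629) and ZFAS1 had 204 and 135 against 299 and 252 FPKM (adjusted p = 0.0639). All 3 were called with a replicate block (adjusted p = 0.00438, 0.0205 and 0.0266). The 18 nonsense-mediated decay factors had a median of 0.22, with 0 called by limma and 2 with the block, which called 11.8% of all genes.

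**Figure D2:**
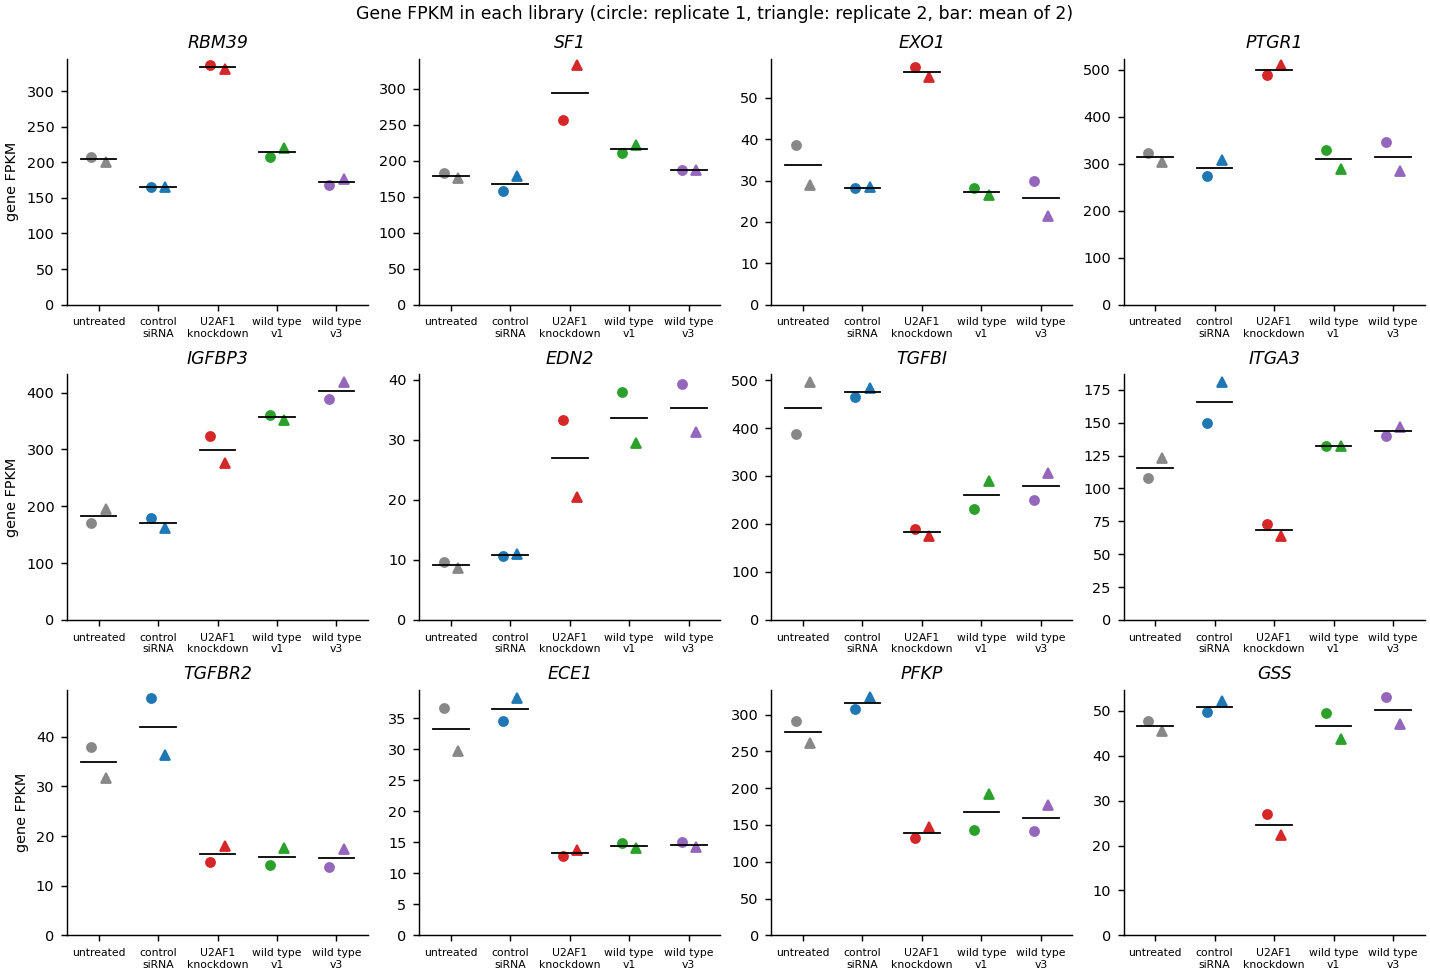
FPKM of 12 genes (vertical axes, each from 0) in each library of 5 groups; circles are replicate 1, triangles replicate 2 and horizontal bars the mean of the 2. RBM39, SF1, EXO1 and PTGR1 are high in the knockdown and lower with wild-type U2AF1, IGFBP3 and EDN2 are high in both, TGFBR2 and ECE1 are low in both, and ITGA3 and GSS are low in the knockdown alone among the groups shown.

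Outside the splicing machinery the genes that rose had varied roles. EXO1, an exonuclease of mismatch and break repair, went from 28.2 and 28.4 to 57.6 and 55.1 FPKM (log2 0.97, SE 0.18, adjusted p = 0.0247) and had 21.4 to 30 FPKM in wild-type libraries. PTGR1 and PTGR2, reductases of prostaglandins, both rose: PTGR1 from 274 and 307 to 489 and 511 FPKM (adjusted p = 0.0225) and PTGR2 from 11.7 and 9.95 to 25.1 and 19.3 FPKM (adjusted p = 0.0247). The 2 groups were apart in both genes, and wild-type libraries lay near the control, at 285 to 345 and 10.3 to 14.5 FPKM. DHX9, an RNA helicase, had 126 and 123 FPKM in the controls and 180 and 179 FPKM in the knockdown (adjusted p = 0.0247). The amino acid sensing GTPase RRAGB went from 5.94 and 5.82 to 14.2 and 12.2 FPKM (log2 1.04, adjusted p = 0.0189).

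SLC25A24, a mitochondrial carrier of adenine nucleotides and phosphate, went from 22.5 and 21.7 to 41.8 and 36.7 FPKM (log2 0.80, SE 0.11, adjusted p = 0.00808). Its 2 groups did not overlap. MRPL32, a mitochondrial ribosomal protein, went from 53.9 and 49.4 to 80 and 81.7 FPKM (adjusted p = 0.0168), and MRPS18C, another, from 31.4 and 27.8 to 48.4 and 57.4 FPKM (adjusted p = 0.0187). The folate enzyme MTHFD2 went from 168 and 158 to 211 and 229 FPKM (adjusted p = 0.0489), the 1 member called of 24 measured in the list of the integrated stress and unfolded protein responses, whose median was -0.09. The 15 mitochondrially encoded genes, whose sum in replicate 2 of the control was the lowest, had a median of 0.63, made of 0.16 in replicate 1 and 1.11 in replicate 2. Whether that library's state had a part in these rises was not tested.

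Some of the genes that rose were at least as high in some or all of the wild-type libraries. IGFBP3, which binds insulin-like growth factors in the medium, went from 179 and 161 to 323 and 276 FPKM (log2 0.81, SE 0.11, adjusted p = 0.00815), with 351 to 419 FPKM in wild-type libraries and 170 and 195 in untreated cells. EDN2, an endothelin, went from 10.6 and 11 to 33.4 and 20.5 FPKM (adjusted p = 0.0462), with 29.4 to 39.4 FPKM in wild-type libraries. CITED2, a transcriptional co-regulator, went from 6.02 and 5.25 to 13.2 and 13.3 FPKM (adjusted p = 0.0426), with 12.5 to 20.3 FPKM in wild-type libraries. The wild-type libraries are knockdown cells as well, and their values are set beside the others with no test.

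TGFBI, ITGA3 and TGFBR2 were among the 293 genes that fell. TGFBI, a matrix protein induced by TGF-beta, went from 465 and 484 to 190 and 176 FPKM, 38.6% of the control (chromosome 5, 135364584 to 135399507, GRCh37; log2 -1.37, SE 0.19, adjusted p = 0.00868). Wild-type libraries lay between the 2 groups, at 231 to 307 FPKM. ITGA3, the integrin subunit that binds laminin, went from 150 and 181 to 72.8 and 63.6 FPKM (chromosome 17, 48133332 to 48167845, GRCh37; log2 -1.26, SE 0.12, adjusted p = 0.0017). Untreated cells, at 108 and 123 FPKM, and wild-type libraries, at 132 to 147 FPKM, also lay above the knockdown.

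TGFBR2, the type II receptor of TGF-beta, went from 47.7 and 36.3 to 14.7 and 18.0 FPKM (log2 -1.30, SE 0.23, adjusted p = 0.0189). It stayed at 13.8 to 17.5 FPKM in wild-type libraries, while untreated cells had 37.9 and 31.7 FPKM. LTBP4, which tethers latent TGF-beta to the matrix, went from 52.2 and 48.7 to 22.8 and 20.6 FPKM (log2 -1.18, adjusted p = 0.00283), and its relative LTBP2 from 5.19 and 6.52 to 1.89 and 1.55 FPKM (adjusted p = 0.00973). FSTL1, a secreted glycoprotein, went from 70.5 and 83.1 to 30.9 and 32.1 FPKM (log2 -1.25, SE 0.13, adjusted p = 0.00283). COL6A2, a chain of collagen VI, and MRC2, a receptor that takes up collagen, fell by 1.31 and 1.35 on the log2 scale (adjusted p = 0.0251 and 0.0189). Of the 25 mesenchymal and TGF-beta response genes listed and measured, TGFBI, LTBP2 and the fibronectin receptor subunit ITGA5 fell and 0 rose, where 2.06% of all genes were called lower, with a median of -0.16. COL5A1, a collagen chain of the same list, had 14 and 34.6 against 4.07 and 8.32 FPKM, a spread too wide for a call (adjusted p = 0.141), and was called with a replicate block (adjusted p = 0.000468). The summed level of the fibroblast markers, given above, was lower on the mean in the knockdown with ranges that overlap, and its part in these falls was not tested.

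ECE1 and PFKP, both enzymes, also fell. ECE1, the protease that matures endothelins, went from 34.6 and 38.3 to 12.9 and 13.8 FPKM (chromosome 1, 21543740 to 21671997, GRCh37; log2 -1.38, SE 0.13, adjusted p = 0.0017), and its wild-type libraries, at 14 to 15 FPKM, were as low. ALDH3B1, an aldehyde dehydrogenase, went from 94.9 and 96.4 to 44.9 and 36.2 FPKM (log2 -1.23, SE 0.11, adjusted p = 0.0017), with 73.6 to 80.3 FPKM in wild-type libraries. PFKP, the platelet type of phosphofructokinase, went from 307 and 324 to 132 and 147 FPKM (log2 -1.17, adjusted p = 0.00973). It was called together with the glucose transporter SLC2A1, which went from 65.2 and 62.1 to 46.2 and 45.9 FPKM (adjusted p = 0.0344), among 28 glycolysis and hypoxia genes with a median of -0.09. The share called of all genes was 2.85%.

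GSS, glutathione synthetase, went from 49.7 and 52.1 to 26.9 and 22.3 FPKM (log2 -1.02, SE 0.12, adjusted p = 0.0068) and had 43.8 to 53.1 FPKM with wild-type U2AF1. FECH, which inserts iron to form heme, went from 50 and 43.2 to 25.5 and 20.5 FPKM (adjusted p = 0.00868). It was the 1 called of 10 heme synthesis genes, where limma called 2.85% of all genes, and had 53.1 to 65.7 FPKM with wild-type U2AF1. ABCC3, an efflux pump of conjugates and a target of NRF2, went from 106 and 141 to 58.0 and 45.0 FPKM (adjusted p = 0.00973). The other NRF2 target called, OSGIN1, an oxidative stress induced growth inhibitor, rose from 55.5 and 67.0 to 88.6 and 100 FPKM (adjusted p = 0.0303). The median of the 24 NRF2 targets was 0.09. SGPL1, the lyase that breaks down sphingosine phosphate, went from 25 and 25.6 to 8.12 and 9.35 FPKM (log2 -1.44, adjusted p = 0.0147) and stayed at 7.6 to 11.9 FPKM in wild-type libraries.

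The most abundant genes that fell include H3F3B, a gene of histone H3.3, which went from 595 and 585 to 362 and 396 FPKM (log2 -0.64, SE 0.11, adjusted p = 0.0187). EIF3B, a subunit of a translation initiation factor, went from 162 and 217 to 113 and 117 FPKM (adjusted p = 0.0239), and SEPT2, a septin of the cytoskeleton, from 256 and 233 to 159 and 156 FPKM (adjusted p = 0.0155). The repair and cell cycle genes NCAPH, a condensin subunit, and FAN1, a nuclease of the Fanconi pathway, fell by 0.91 and 0.90 on the log2 scale (adjusted p = 0.0122 and 0.0305). The keratin KRT7 stood at 1465 and 1681 against 1062 and 1130 FPKM, without a call (adjusted p = 0.108, and 0.00502 under a replicate block). The autophagy receptor SQSTM1 stood at 542 and 644 against 420 and 457 FPKM (adjusted p = 0.051, and 0.0172 under the block).

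As groups, the cell cycle lists moved little. Of 37 genes of G2/M and mitosis UBE2C rose and NCAPH fell, with a median of 0.08, and of 34 genes of G1/S and DNA replication the thymidine kinase TK1 fell, with a median of -0.04. Of 28 p53 target genes limma called 0, or 4 with a replicate block (2 in each direction), and the median was -0.01. The block called 11.8% of all genes. The interferon-stimulated genes lay lower, with 12 of 19 below both controls in both libraries, where 26.7% of all genes did so, a median of -0.29 and 1 call, IFI6. Of 49 cytosolic ribosomal protein genes 45 lay above the control and 36 in both libraries beyond both controls, as did 24.7% of all genes and 34.4% of those over 50 FPKM in the control, with a median of 0.16 (0.09 in replicate 1 and 0.25 in replicate 2) and 0 called by limma, or 3 with the block. The 13 replication-dependent histones all lay below the control, with a median of -0.33 and 0 called. Over the 31 lists limma called 30 of 623 measured members (4.82%, against 2.85% of all genes), or 105 with a replicate block (16.9% against 11.8%). The lists were chosen with earlier results of these data known, so they describe and do not test.

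**Figure D3:**
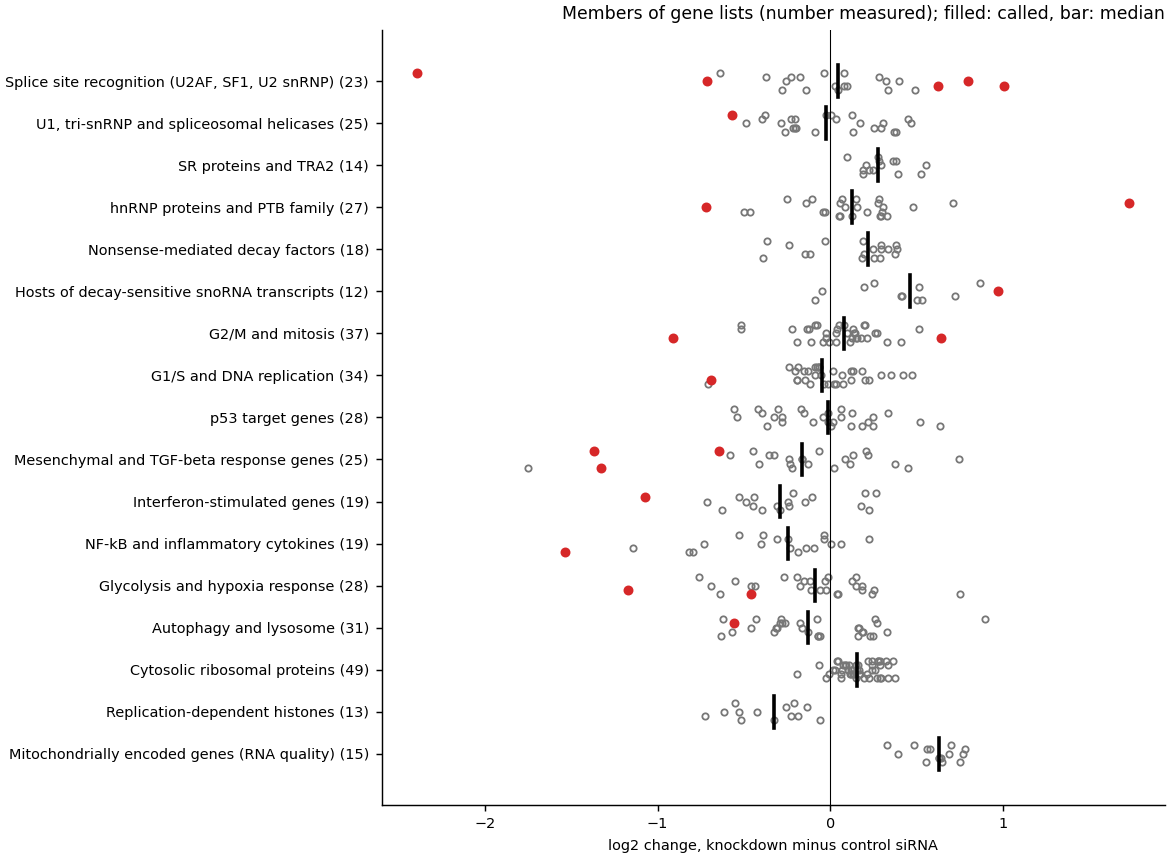
Log2 change (knockdown minus control siRNA, horizontal axis) of each measured member of 17 gene lists, with the number measured in brackets; filled red points are members called by limma, open points those not called, and black bars the list medians. The SR proteins and the mitochondrially encoded genes lie wholly above 0 and the replication-dependent histones wholly below it, with 0 members called in each.

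The level of a gene moved with how many introns it has. The 787 genes without an intron in their most abundant matched isoform had a median log2 change of 0.06, the 4973 with 1 to 4 introns 0.02, the 3566 with 5 to 9 introns 0.02, the 2914 with 10 to 19 introns -0.07 and the 1228 with 20 or more -0.16. The share called lower grew in the same order, from 0.635% through 1.31%, 1.91% and 3.16% to 4.23%, whereas the share called higher stayed between 0.254% and 1.12%. ITGA3, with 25 introns, and ECE1, with 18, belong to the upper classes. The classes also differ in level, with median control values of 2.17 and 9.44 FPKM in the first 2 classes and 17.6 to 18.6 in the others, and the share called lower was 0.519% under 5 FPKM and 2.27% to 3.26% in higher classes of level. Among isoforms of 2000 to 4000 bases, a restriction chosen after the values were seen, the medians ran from 0.02 in 105 genes without an intron to -0.14 in 286 genes with 20 or more. Per library, and relative to the mean of all 14, the many-intron genes minus the intronless genes stood at 0.125 and 0.240 in the controls and at -0.00237 and -0.0883 in the knockdown. The knockdown lay lower within both numbered pairs, with differences of -0.127 and -0.329. In each of the other 5 groups replicate 2 lay below replicate 1, with differences of -0.265 (untreated cells) to -0.0278, whereas the control's replicate 2 lay 0.116 above its replicate 1. The second untreated library, at -0.127, was the lowest of the 14.

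Usage of an isoform is its share, in percent, of the FPKM of the whole gene. Of 41727 isoforms of 11666 genes limma called 54 (0.129%) in 48 genes, 39 used more (0.0935%) and 15 used less (0.0359%), while 4281 had an unadjusted p under 0.05 (2197 more and 2084 less). The total was 32 without replicate 1 of the control (7 more and 25 less), 5 without that group's replicate 2 and 17 when the second knockdown library was left out. With a replicate block it was 62 (39 more and 23 less), of which 40 were among the 54. Of the 54, 1 stayed called whichever library was left out (ABI3BP, a matrix protein with a gene mean of 1.68 FPKM) and 33 stayed in none of the 4 such fits. The ABI3BP isoform (ENST00000527943) stood at 41.9% and 33.5% in the controls and at 0% or nearly so in all other libraries, untreated ones included. There the control was the group that stood apart. In 32 genes the called isoform and the isoform that moved most the other way both have a structure of equal length in GENCODE release 29. In 19 of these genes (59.4%) the gaining isoform skips an internal exon that the losing one contains. The reverse held in 3 genes, both in 1 gene, and 9 pairs differed in their ends or splice sites. Pairs counted for a skipped exon may differ elsewhere too, as in their ends. Over all 8893 genes with 2 such isoforms, taking the largest gain and the largest loss, the gaining isoform skips an exon in 21.7% and the losing one in 10.3%, and among the 883 with an unadjusted p under 0.01 the shares were 33.4% and 9.29%. This comparison of pairs was chosen after the values were seen and is a description with no test.

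The exons below are shown because the isoform and acceptor changes described next turn on them, and they were chosen after the values were seen. They were read from GENCODE release 29 transcripts (GRCh38), 5′ to 3′ along the mRNA, with the exon in capitals and the joined bases of its neighbours in lower case. The 4 at the top are absent from an isoform that was used more after the knockdown. In CDC25A and IL18 the exon's 3′ splice site was also called as used less. In MITD1 and CRYZ that site was not called. Their isoforms also differ elsewhere, with lengths of 662 against 939 and 1292 against 1888 bases. The other 3 were included more often, by the 3′ splice site in TRIP10 and GIT1 and by isoforms alone in RPS24. The deposited lengths of the RPS24 isoforms are not both those of GENCODE, so its exon is less certain. The 7 chosen are multiples of 3 bases and wholly coding, so leaving them out keeps the reading frame.
MITD1, exon of 87 bases, chr2:99171343-99171429, minus strand: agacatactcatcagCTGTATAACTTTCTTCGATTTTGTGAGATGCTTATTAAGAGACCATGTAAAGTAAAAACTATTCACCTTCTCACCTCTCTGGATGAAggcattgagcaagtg
CRYZ, exon of 102 bases, chr1:74707103-74707204, minus strand: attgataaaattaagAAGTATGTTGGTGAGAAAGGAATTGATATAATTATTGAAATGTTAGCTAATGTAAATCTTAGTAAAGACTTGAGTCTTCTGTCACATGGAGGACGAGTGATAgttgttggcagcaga
CDC25A, exon of 120 bases, chr3:48180721-48180840, minus strand: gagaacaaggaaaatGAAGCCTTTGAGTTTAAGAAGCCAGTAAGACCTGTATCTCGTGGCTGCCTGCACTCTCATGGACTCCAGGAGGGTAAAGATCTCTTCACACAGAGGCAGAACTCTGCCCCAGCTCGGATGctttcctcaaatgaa
IL18, exon of 12 bases, chr11:112153592-112153603, minus strand: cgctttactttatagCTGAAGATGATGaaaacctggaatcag
TRIP10, exon of 168 bases, chr19:6746029-6746196, plus strand: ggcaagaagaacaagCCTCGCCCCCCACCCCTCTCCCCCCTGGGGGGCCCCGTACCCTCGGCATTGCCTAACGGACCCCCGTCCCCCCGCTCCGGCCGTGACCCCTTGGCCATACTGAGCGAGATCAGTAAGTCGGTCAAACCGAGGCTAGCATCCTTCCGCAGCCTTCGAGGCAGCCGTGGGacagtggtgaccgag
GIT1, exon of 27 bases, chr17:29578962-29578988, minus strand: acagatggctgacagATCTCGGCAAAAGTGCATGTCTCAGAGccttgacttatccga
RPS24, exon of 3 bases, chr10:78037439-78037441, plus strand: ggtgctggcaaaaagAAGtgagctggag

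MITD1 encodes a protein of midbody abscission, the last step of cell division. Its isoform without the 87-base exon (ENST00000409107) made up 8.08% and 12.3% of the gene in the controls and 43.1% and 48.8% in the knockdown (35.7 points, SE 3.4, adjusted p = 0.018). The full isoform stood at 68.8% and 64.6% against 27.8% and 22.8%, which was not called on its own (adjusted p = 0.120, and 0.0489 under a replicate block), and the gene's FPKM did not pass the test (adjusted p = 0.506). Untreated cells, at 15.2% and 12.4%, and wild-type libraries, at 7.36% to 13.9%, lay with the control.

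CRYZ is a quinone reductase known as zeta-crystallin. Its isoform without the 102-base exon (ENST00000370871) went from 4.44% and 5.41% to 31.2% and 33.5% (27.4 points, adjusted p = 0.0259), with 4.10% to 7.96% in wild-type libraries. CDC25A is the phosphatase that activates cyclin-dependent kinases at entry into S phase. Its isoform without the 120-base exon (ENST00000351231) went from 7.56% and 6.99% to 44.2% and 49.5% (39.6 points, SE 5.4, adjusted p = 0.0418, or 0.0548 with a replicate block), with 0.00196% to 18.2% in wild-type libraries. IL18 is a cytokine of the interleukin-1 family. Its isoform without the 12-base exon (ENST00000524595) went from 5.68% and 2.19% to 29.5% and 33.0% (27.3 points, adjusted p = 0.0366). In all 3 genes the groups were far apart, and untreated cells had at most 9.59% of these isoforms.

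Further isoforms that lack an exon rose in genes of varied roles. MRPS18C, whose level also rose, went from 30.4% and 22.3% to 60.8% and 65.4% for ENST00000507019, which lacks an 84-base exon (adjusted p = 0.041). FAM161A, a ciliary protein, gained ENST00000405894, which lacks a 168-base exon. It went from 14.9% and 25.1% to 60.1% and 59.8% (adjusted p = 0.0449, and 0.0569 under a replicate block). SCOC, a Golgi coiled-coil protein, went from 9.88% and 6.07% to 27% and 29.2% for ENST00000506597, which lacks an 84-base exon (adjusted p = 0.0418). TMX2, a membrane thioredoxin, lost the isoform that contains a 114-base exon (ENST00000278422), from 59.3% and 53.8% to 28.6% and 26.2% (-29.1 points, adjusted p = 0.0466). The snoRNA host SNHG15 gained a form without a 70-base exon. It went from 8.84% and 7.49% to 36.7% and 33.2% (adjusted p = 0.0418, and 0.0548 under the block). These pairs also differ elsewhere, with lengths of 666 against 1643 bases in MRPS18C, 3684 against 3762 in FAM161A and 731 against 982 in SNHG15. In SCOC the isoform without the exon is the longer, at 1838 against 1795 bases. No 3′ splice site of MRPS18C, FAM161A, SCOC, TMX2 or SNHG15 was called. DPY19L1, ZNF207 and AMPD2 gained ENST00000446375, ENST00000321233 and ENST00000476688 by 22.1, 15 and 14.6 points (adjusted p = 0.0466, 0.0418 and 0.0465, the last 0.0517 with the block). These 3 differ in many exons from the isoform that moved most the other way, so no single exon accounts for the pair. In DPY19L1 the 3′ splice site of an 87-base exon that ENST00000446375 lacks was called as used less. Its usage went from 97.7% and 95.5% to 76.6% and 68.8% (adjusted p = 0.0393).

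Several of the largest changes in usage were in other genes. WNK4, a kinase that regulates ion transport, lost ENST00000246914, from 80.2% and 100% to 18.3% and 16.8% (-72.5 points, adjusted p = 0.0418), but untreated cells had 51.2% and 27.2% and the gene is low, at a mean of 2.19 FPKM. FANCB, a subunit of the Fanconi anemia core complex, gained ENST00000324138, which lacks a 121-base exon, from 7.55% and 10.2% to 62.0% and 67.0% (55.6 points, adjusted p = 0.0418). SNAP25, a SNARE protein, has 2 alternative exons of 118 bases each, and its isoform ENST00000254976 went from 6.54% and 11.1% to 45.7% and 63.6% (adjusted p = 0.0418, and 0.0569 under a replicate block). In FANCB and SNAP25 both knockdown libraries were far above all untreated and wild-type libraries, which had at most 26.5% and 11.5%.

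TMEM126B, an assembly factor of respiratory complex I, had a mean of 54.9 FPKM. It gained ENST00000358867, from 21.6% and 19.2% to 65.2% and 57.8% (41.1 points, adjusted p = 0.0366). Its wild-type libraries had 22.9% to 36.9%. By GENCODE structure ENST00000358867 lacks a 172-base exon that ENST00000393375 contains. The deposited lengths of this pair, 989 and 1114 bases, are not both those of GENCODE, so this exon difference may not hold. PDGFB, the B chain of platelet-derived growth factor, lost ENST00000381551, which has its own first exon, from 40.5% and 44.4% to 0.981% and 5.86% (-39 points, adjusted p = 0.0234). The other PDGFB isoform, ENST00000331163, went from 59.5% and 55.6% to 91.9% and 89.3% (adjusted p = 0.0466, and 0.0548 under a replicate block). Untreated and wild-type libraries lay between the 2 groups in both.

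A few exons were included more often. TRIP10, an adaptor between CDC42 and the actin cytoskeleton, went from 2.42% and 4.57% to 27.3% and 32.3% for the isoform with the 168-base exon (ENST00000313244; 26.3 points, SE 2.4, adjusted p = 0.018), and wild-type libraries had 2.26% to 5.95%. DCTN2, the dynamitin subunit of dynactin, went from 1.58% and 1.35% to 26.3% and 28% for ENST00000434715 (25.7 points, SE 2.2, adjusted p = 0.0159). RPS24, a protein of the small ribosomal subunit, has a 3-base exon near its end. Its isoform without it (ENST00000372360) went from 75.4% and 68.6% to 43.6% and 31.6% (-34.4 points, SE 4.8, adjusted p = 0.0418, or 0.0514 with a replicate block). The isoform with it (ENST00000360830) stood at 17.5% and 22.1% against 38.7% and 43.6% (adjusted p = 0.0696). The exon was assigned by GENCODE structure. The deposited lengths of these isoforms, 510 and 514 bases, are not both those of GENCODE, so the assignment may not hold. Untreated and wild-type libraries had 73.6% to 77.1% of the shorter form, and the gene stayed near 1545 to 1984 FPKM in the 4 libraries.

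BAX, the pore-forming promoter of apoptosis, gained an isoform (ENST00000293288) with a last exon of 989 bases (chr19:48960810-48961798, GRCh38), which runs over what is an intron between the last exons of the isoform it was set against (ENST00000415969). It went from 24.4% and 18.2% to 48.4% and 49.3% (27.6 points, SE 3.7, adjusted p = 0.0418), while untreated and wild-type libraries had 25.8% to 30.1%. The gene itself was at 231 and 329 against 260 and 288 FPKM, groups that overlapped. PSAP, the precursor of the saposins that help degrade sphingolipids in lysosomes, gained ENST00000394934 from 4.22% and 4.47% to 19.6% and 27.7% (adjusted p = 0.0465, and 0.0569 under a replicate block). ILK, the integrin-linked kinase, gained ENST00000532063, from 3.72% and 1.35% to 19.3% and 18.2% (16.2 points, adjusted p = 0.0265). In GENCODE this isoform skips an exon of 166 bases that ENST00000420936 contains. The deposited lengths of the pair, 1591 and 1692 bases, are not both those of GENCODE, so this exon difference may not hold.

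**Figure D4:**
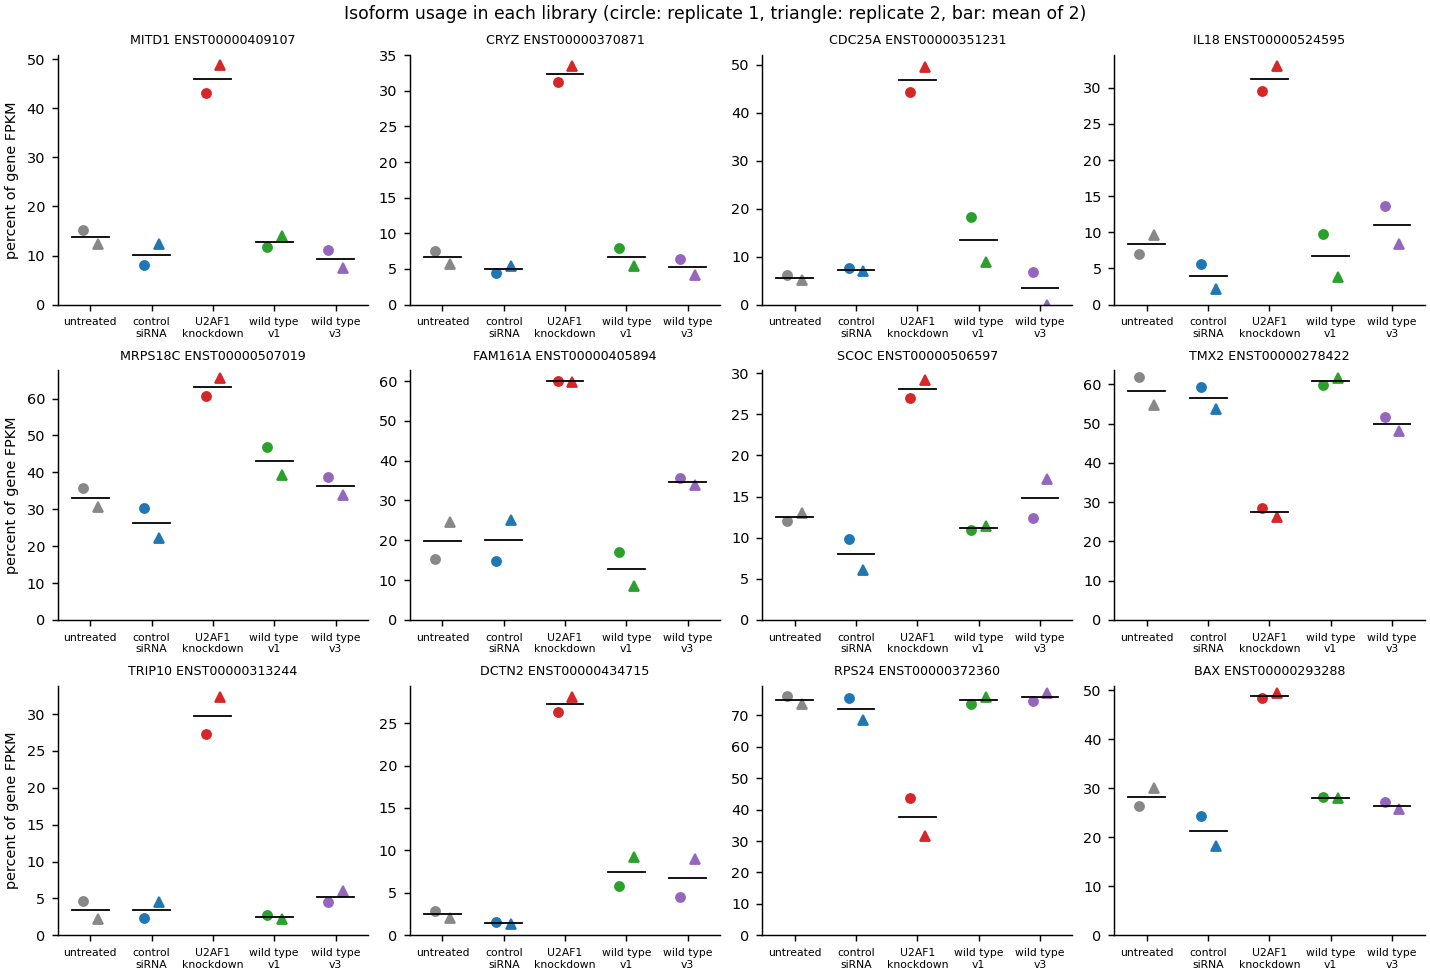
Usage of 12 isoforms as a percent of the gene's FPKM (vertical axes, each from 0) in each library of 5 groups; circles are replicate 1, triangles replicate 2 and bars the mean of the 2. The knockdown libraries lie above both controls in 10 panels and below them in TMX2 and RPS24. Untreated and wild-type libraries lie on the control's side of the knockdown, nearest the control in MITD1, CRYZ, TRIP10 and RPS24. In MRPS18C replicate 1 of wild-type v1, at 46.9%, is nearer the knockdown.

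The same direction appeared over internal exons that other isoforms of the gene skip. Exons whose start lies inside an exon that begins elsewhere were left out. For the 12239 such exons in 5989 genes, usage of the exon's 3′ splice site had a median change of -1.07 points (-1.12 in replicate 1 and -0.89 in replicate 2), and 27.1% lay below both controls in both libraries against 16.0% above. At an unadjusted p under 0.05, 997 were used less and 458 more, and limma called 9 less and 6 more. The size of the change differed between classes of exon length. The 2672 exons of 28 to 79 bases had a median of -2.13 points, the 3413 of 80 to 119 bases -1.61, the 4164 of 120 to 199 bases -0.76 and the 1773 of 200 bases or more 0.00. The 217 exons of up to 27 bases had a median of 0.49 points, with 23 used more and 10 less at an unadjusted p under 0.05. In this class 1 was called in each direction, with IL18's 12-base exon used less. The called exons of GIT1, PTK2 and DCTN2 described below, of 6 to 27 bases, were all used more, but at most 1 of them is in this class. Of the 217 short exons 26.3% lay above both controls in both libraries and 23.04% below. Their level, centred on all 14 libraries, was -0.24 and -0.22 points in the controls, 0.33 and -0.25 in the knockdown and -0.25 to 0.54 in wild-type libraries, so the groups overlap. As a level centred on all 14 libraries, the exons of all lengths stood at -0.67 and -1.07 points in the knockdown, the lowest of the 14, at 0.84 and 0.18 in the controls, 0.37 and 0.50 in untreated cells, 0.39 to 0.94 in wild-type libraries and -0.29 to 0.11 in S34F libraries. These classes were chosen after the values were seen and carry no test.

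**Figure D5:**
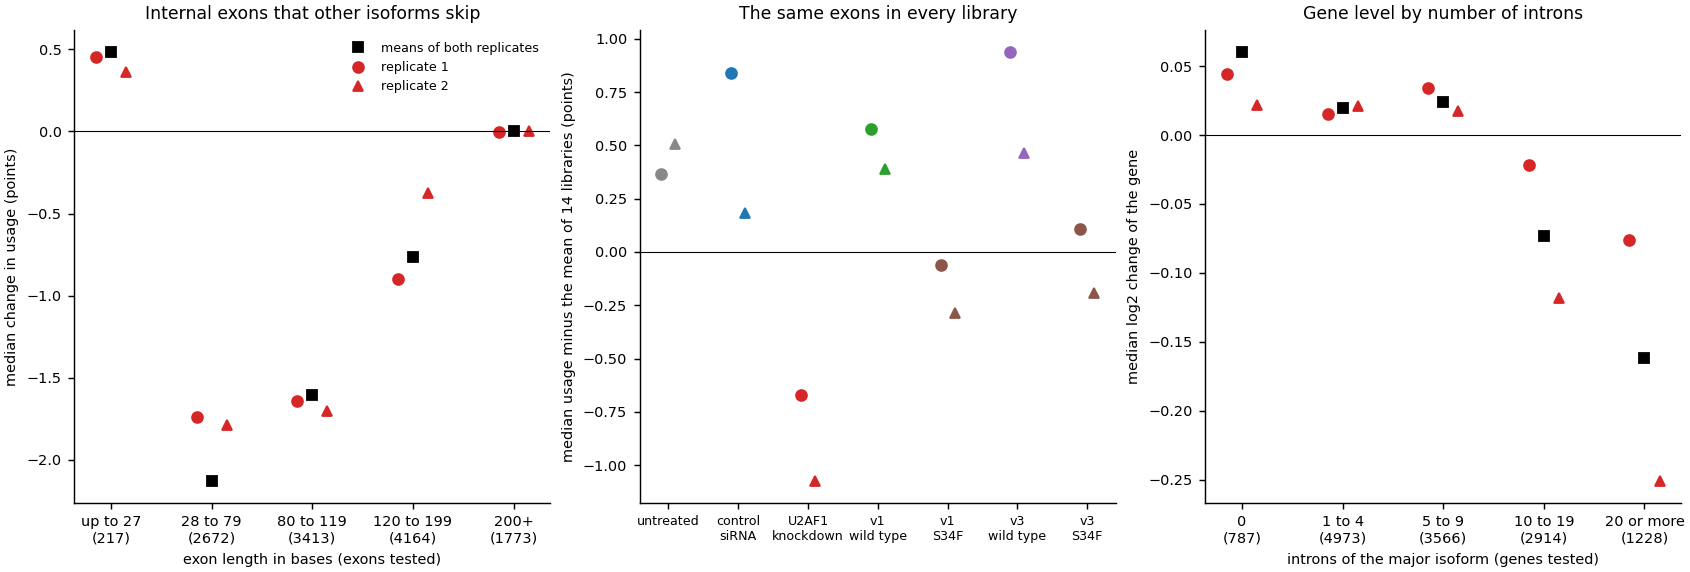
Left, median change in usage of internal exons by exon length, in percentage points, with the number of exons in brackets; middle, the median usage of the same exons in each of the 14 libraries minus the mean of all; right, median log2 change of genes by number of introns. In the left and right panels squares are the group means and circles and triangles replicates 1 and 2, and in the middle panel each library has its own symbol. Exons of 28 to 79 bases lie lowest at -2.13 points, the knockdown libraries are the lowest of the 14, and genes with 20 or more introns lie lowest at -0.16.

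A 3′ splice site is called an acceptor here, and its usage is the percent that isoforms using it make up of the FPKM of all isoforms spanning it. Of 31477 acceptors in 8947 genes limma called 28 (0.089%) in 23 genes, 15 used more (0.0477%) and 13 used less (0.0413%), and 3509 had an unadjusted p under 0.05, 1098 more and 2411 less. A replicate block kept the 28 and gave 69, 25 used more and 44 less. Without 1 library the count was 12 (replicate 2 of the control) or 43 and 103 (replicates 2 and 1 of the knockdown). Over all acceptors the median change was -1.30 points, with 27.6% below both controls in both libraries and 15.8% above.

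The 9 called acceptors whose bases are known are given with their last 20 intron bases and first 3 exon bases, to show sites that gained or lost use, with the AG and the base before it, at position -3, in capitals. The bases were read from other GENCODE release 29 transcripts whose exons cover them.
REC8, used less, chr14:24179800, plus strand: atggttcttgatccctaTAGggc
REC8, used more, chr14:24180010, plus strand: tctcctcgcctcttgacCAGtgc
C16orf74, used more, chr16:85710307, minus strand: ctccacgcctggcttctCAGgct
DLX1, used more, chr2:172085312, plus strand: cccggcgcgctctgttgCAGagg
GIT1, used more, chr17:29578988, minus strand: ctgccttcctctggactTAGatc
DCTN2, used more, chr12:57538524, minus strand: acctctggggaaaccacAAGgag
PLXNB3, used less, chrX:153778396, plus strand: aacgaagtctgctcctcCAGgta
PLXNB3, used less, chrX:153778600, plus strand: cctccacgtggtgccccCAGaac
HERC4, used more, chr10:68039488, minus strand: caaactttgatttgctgAAGctg

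REC8 encodes a cohesin of meiosis, and its 2 acceptors exchanged use. The upstream site had 100% in both controls and 25.3% and 13.3% in the knockdown, and the downstream site, at 0% in both controls, had 74.7% and 86.7% (80.7 points, adjusted p = 0.0393). Untreated cells had 56.5% and 59.7% at the downstream site and wild-type libraries 32.6% to 61.2%, so the control was the group that stood apart from these, and the gene is low, at a mean of 3.38 FPKM over the 14 libraries.

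GIT1, a GTPase-activating scaffold at focal adhesions, included its 27-base exon in 7.82% and 12.2% in the controls and 49.9% and 54.5% in the knockdown (42.2 points, SE 4.0, adjusted p = 0.0163). Untreated cells had 18.2% and 16.3% and wild-type libraries 10.9% to 26.9%. Its call and those of both EYA4 sites stood whichever library was left out. EYA4, a phosphatase and transcriptional coactivator, has neighbouring exons of 101 bases each. The first went from 99.8% and 100% to 54.2% and 58.5%, and the other from 0.24% and 0.0102% to 45.8% and 41.5% (43.5 points, SE 3.7, adjusted p = 0.0107). Untreated cells had under 1% of the second, at 0.00387% and 0.00446%.

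DCTN2 included exons of 9 and 6 bases. Usage was 3.18% and 3.47% against 39.6% and 46.2% for the longer (adjusted p = 0.0163). For the shorter it was 3.12% and 3.77% against 38.6% and 47.3% (adjusted p = 0.0167). These shares leave out ENST00000537439, which has no structure in GENCODE release 29. That isoform made up 45.0% and 48.8% of the gene in the controls and 25.6% and 24.5% in the knockdown. PTK2, the focal adhesion kinase, included a 9-base exon in 34.5% and 23.8% against 74.1% and 74.4% (45.1 points, adjusted p = 0.0321). The acceptor of the CDC25A exon fell from 92.3% and 92.7% to 54.3% and 46.3% (adjusted p = 0.045). The exon of IL18 fell from 93.7% and 97.7% to 69.1% and 65.2% (adjusted p = 0.0393), and HERC4, a ubiquitin ligase, gained a 72-base exon, from 2.22% and 1.61% to 27.1% and 23.9% (adjusted p = 0.0393). C16orf74 used the 3′ splice site of a 144-base exon more, from 37.4% and 18.8% to 82.9% and 79.8% (adjusted p = 0.0481). Its called isoform and the isoform set against it differ by no skipped internal exon. FGFR1, a receptor of fibroblast growth factors, included a 267-base exon in 26.7% and 28.7% against 70.2% and 63.6% (39.2 points, adjusted p = 0.0249), with 39.5% to 44.2% in wild-type libraries. ZFAND1, a zinc finger protein, used a 40-base exon in 63.5% and 55.3% against 20.5% and 13.2% (-42.6 points, adjusted p = 0.0294). Both PLXNB3 sites went from 100% in both controls to 62.3% and 71.8% in the knockdown (adjusted p = 0.0284). Untreated cells had 85.1% and 80.6%, wild-type libraries 69.4% to 84.6% and S34F libraries 100%. The controls thus lay above all untreated and wild-type libraries. Wild-type v1, at 70.6% and 69.4%, lay within the range of the knockdown, and the gene's mean is 3.62 FPKM. IL18, HERC4, FGFR1, DPY19L1 and the PLXNB3 sites fall outside the 15 largest and were chosen after their values were seen.

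The base before the AG was counted at acceptors with an unadjusted p under 0.01 and at least 5 points, 1 per gene. A stood at position -3 in 16.5% of the 97 used more, in 3.73% of the 268 used less and in 7.65% of the 14986 with known bases. C stood there in 58.8%, 75.4% and 68.4%, and T in 20.6%, 19.8% and 22.0%. Of the 9 called sites shown above 2 have A (DCTN2 and HERC4, both used more), 5 have C (3 used more and 2 less) and 2 have T (1 in each direction). At the first exon base, G made up 37.3% of 263 used more, 41.4% of 589 used less and 44.8% of all tested. Of the 17 bases before position -3, pyrimidines numbered 12.1 ± 2.19 (SD) at sites used more and 12.4 ± 2.07 at sites used less, against 12.2 ± 2.21 over all. The bases are known mainly where another transcript's exon covers the intron, so these are largely alternative sites, and the shares are a description with no test.

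The share of a gene's FPKM in isoforms typed as nonsense-mediated decay or retained intron was tested in 5494 genes. limma called 0 (0%), 434 had an unadjusted p under 0.05, 305 higher and 129 lower, and the replicate block also gave 0. The retained-intron share alone, in 3981 genes, gave 0 calls and 265 with an unadjusted p under 0.05, 201 higher and 64 lower. Its median change was 1.53 points (1.44 in replicate 1 and 1.60 in replicate 2), with 28.9% of genes above both controls in both libraries and 13.1% below. The nonsense-mediated decay share, in 2506 genes, gave 0 calls and 235 with an unadjusted p under 0.05, 140 higher and 95 lower, although its median was -0.23 points (0.16 in replicate 1 and -0.12 in replicate 2). The median retained-intron share was 11.3% and 13.9% in the controls and 13.2% and 15.6% in the knockdown, against 12.3% and 19.9% in untreated cells. It was higher in the knockdown within both numbered pairs, by 1.92 and 1.73 points, while the 2 groups overlap. Replicate 2 exceeded replicate 1 by 2.63 points in the control and 2.44 in the knockdown, and by 5.28 to 7.54 points in the other 5 groups. The genes with the smallest p include APRT, the adenine salvage enzyme, at 4.42% and 5.73% against 16.0% and 19.1% unproductive (adjusted p = 0.290). Another is WHAMM, an actin nucleation factor, at 0.00126% and 0.0013% against 21.2% and 19.1% (adjusted p = 0.246). For WHAMM untreated cells had 14.7% and 11.7% and wild-type libraries 5.14% to 13.3%, so its control lay below these too. U2AF1's own retained-intron share was 5.27% and 4.28% in the controls and 32.4% and 19.9% in the knockdown (adjusted p = 0.139). As the siRNA's target, its total FPKM, the base of this share, fell as given above. A higher share of it is therefore not a higher level of these isoforms. That no gene passed does not show that the shares were equal.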

How the data were processed

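The submitters' processing notes name Trimmomatic 0.30, TopHat2 2.0.12 and GRCh37. For the quantifier, the annotation and the strand setting nothing is stated in the sources used here, so antisense and overlapping genes can share reads. Per the file headers, each deposited table gives an FPKM and a coverage value per isoform, with a status for each estimate. Coverage was used for relative depth only. FPKM is not a count, so no count model was used, and no interval is given.

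Gene values are FPKM summed over isoforms. On log2(FPKM + 1), limma 3.58.1 (R 4.3.3, trend on) fitted 7 group means over all 14 libraries (7 residual and 3.92 prior degrees of freedom). Fold changes are on that scale, which understates changes of low genes. Genes needed a mean of at least 1 FPKM, which 14244 had, and 11 of them with an estimate not marked OK were left out. Usage features, in percent, used the same model at a mean of 5 to 95 percent. Acceptors were taken from isoforms of equal length in GENCODE release 29 and also needed spanning ones of at least 1 FPKM in sum. Benjamini-Hochberg adjustment ran over all features of a kind, and an adjusted p under 0.05 was called. Types, exons and sequences came from GENCODE release 29 (GRCh38). Gene coordinates are the deposited ones (GRCh37).

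The comparison, members and lists were chosen with earlier results of these data known. Names in the text were drawn from, among called genes whose groups do not overlap, the 30 with the largest change, the 10 with the smallest p and the 12 most abundant in each direction, called list members with up to 4 uncalled ones per list, the 25 called isoforms with the largest change and those in genes of at least 20 FPKM, and the 15 acceptors and genes with the largest or most significant change. Not every feature so drawn is named, the rest stand in the counts, and 1 gene so drawn is not reported here. Same-numbered libraries deviated from their group means together in all 21 pairs of groups (correlation 0.16 to 0.571, median 0.368), so replicate numbers were taken to pair the samples. Where this comes from is not stated in the labels. Alternatives were the block, only the 4 libraries, each library left out, pseudocount, filters, scalings and an arcsine scale.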

Additional observations from a re-analysis of the deposited data

How the results depend on the processing

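No main value changed sign under any alternative run, but the balance of isoforms used more and less did, as given below and above. With only the 4 libraries compared, which leaves few residual degrees of freedom, limma called 0 genes, isoforms, acceptors and list members, and U2AF1 stood at -2.39 with an adjusted p of 0.167. Leaving out 1 library gave U2AF1 changes of -2.79 to -1.99 (adjusted p = 0.0557 without replicate 2 of the control and 0.0522 without replicate 1 of the knockdown), 15 to 274 genes called, 5 to 59 isoforms, 0 to 2 genes in unproductive share, 12 to 103 acceptors and 3 to 27 list members; the library left alone is then assumed to vary like the other groups. The replicate block gave 1681 genes, 69 acceptors and 105 list members, and beyond the calls given with it above it changed no other call of a gene, isoform or acceptor named in the text. Without a filter on low values 241 genes and 15 list members were called. An arcsine scale gave 13 isoforms (5 more and 8 less), 14 acceptors and 2 genes in unproductive share. Limits of 10 to 90 percent gave 5 isoforms and 15 acceptors, and genes of at least 5 FPKM gave 112 and 72. Other pseudocounts, filters and scalings gave 342 to 446 genes, and the many-intron gap of -0.22 ran from -0.31 to -0.12 over all settings. The uncalled keratins changed sign, KRT8 from 0.10 to -0.19 with quantile normalization and to between -0.10 and 0.30 with 1 library left out, and KRT18 from 0.19 to -0.012 with that normalization.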
